A study of Homo sapiens with 4 samples.

Results

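The 39 protein-coding genes of the 4 human HOX clusters were followed in SH-SY5Y, a long-established cell line from a human neuroblastoma. A gene was a member when the deposited tables classed it as protein coding and its symbol was HOX, a cluster letter from A to D and a paralog number, and 39 of the 58243 genes in the tables met this rule, 11 in HOXA, 10 in HOXB, 9 in HOXC and 9 in HOXD. The control group was 2 libraries of cells given no agent, and the SNP group was 2 libraries of cells exposed for 8 h to the nitric oxide donor sodium nitroprusside (SNP). The libraries of each group carry the letters a and b. The labels describe the cells of both groups as differentiated with retinoic acid, list no differentiation step, call the RNA from SNP cells oxidized, and mention several SNP doses without saying which one these libraries stand for. They do not say that the libraries of a group came from separate cultures, so every p-value measures only the spread between these libraries, which may be technical.

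HOX genes encode homeodomain transcription factors that give cells of the embryo their position along the head-to-tail axis. Within a cluster the genes lie in the order in which they are used along the body, with low paralog numbers at the 3' end acting towards the head and high numbers at the 5' end towards the tail, and retinoic acid turns on the 3' genes first. Silent clusters are held by Polycomb complexes and active ones by MLL complexes, and HOX proteins bind DNA together with partners of the PBX and MEIS families. In the sympathetic lineage, from which neuroblastoma arises, the set of HOX genes that a cell transcribes is known as a record of the axial level of its origin. Here paralogs 1 to 3 were grouped as anterior (8 genes), 4 to 8 as central (15 genes) and 9 to 13 as posterior (16 genes).

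The start regions of the genes on which the comparisons turn are shown, where available, because some of these genes start at separate places and others lie nested in one another or share a window. Each sequence is RefSeq's window from 250 bases before to 50 bases after an annotated start (GRCh38.p14, plus strand), and 20 of the 39 HOX genes had at least 1 such window. Capitals mark the CCAAT box (CCAAT, or ATTGG on the other strand) and the homeodomain core TAATTA. HOXC6 and HOXD9, which are also compared below, had no window. HOXC4 and HOXC5 have the same window, so it is given once. It lies well outside the HOXC5 gene model of GENCODE.
HOXD8, chr2:176129455-176129754: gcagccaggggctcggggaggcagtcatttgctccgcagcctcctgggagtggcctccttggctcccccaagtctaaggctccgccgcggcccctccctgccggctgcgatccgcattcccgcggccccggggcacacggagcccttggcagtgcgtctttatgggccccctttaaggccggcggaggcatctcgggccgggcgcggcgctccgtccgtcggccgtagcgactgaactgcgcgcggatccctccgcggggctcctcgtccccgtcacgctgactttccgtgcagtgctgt
HOXD3, chr2:176157057-176157356: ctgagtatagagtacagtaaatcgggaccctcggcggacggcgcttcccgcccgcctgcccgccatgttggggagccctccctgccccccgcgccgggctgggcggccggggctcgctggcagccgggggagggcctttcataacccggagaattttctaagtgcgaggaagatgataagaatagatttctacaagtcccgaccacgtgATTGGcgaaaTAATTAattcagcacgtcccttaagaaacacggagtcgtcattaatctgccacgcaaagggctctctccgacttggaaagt
HOXD4, chr2:176151300-176151599: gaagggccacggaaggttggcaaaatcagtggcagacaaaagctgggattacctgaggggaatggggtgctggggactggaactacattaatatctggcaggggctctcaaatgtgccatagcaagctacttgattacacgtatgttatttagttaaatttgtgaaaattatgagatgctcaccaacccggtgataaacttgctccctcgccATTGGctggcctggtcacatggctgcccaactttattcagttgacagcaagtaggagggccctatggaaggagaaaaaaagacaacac
HOXC4 and HOXC5, chr12:54016638-54016937: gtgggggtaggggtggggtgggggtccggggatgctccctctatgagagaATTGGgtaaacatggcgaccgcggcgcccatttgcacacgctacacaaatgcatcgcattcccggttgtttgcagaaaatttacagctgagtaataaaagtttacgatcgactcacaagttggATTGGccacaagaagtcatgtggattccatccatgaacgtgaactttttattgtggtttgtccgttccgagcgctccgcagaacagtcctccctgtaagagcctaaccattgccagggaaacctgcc

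The HOXD8 window was 71.7% G and C, held 34 CG pairs against a median of 14 over 34943 windows of the same length, and held no match to the 5 motifs searched. The HOXD4 window was 47.3% G and C, held 4 CG pairs, and had the CCAAT box in reverse 38 bases before the start. In the HOXD3 window the box stood 41 bases and TAATTA 31 bases before the start, and there were 25 CG pairs. The shared HOXC4 and HOXC5 window had the box at 200 and 77 bases before the start. The motifs were searched on both strands in the 27 HOX windows: CCAAT was in 18 (34.6% of all windows held it), TATAAA, the TATA box, in 5 (11.6%), TGATNNAT, bound by HOX with PBX, in 3 (7.42%), TAATTA in 2 (4.85%) and AGGTCA, a core element of retinoic acid receptor sites, in 0 (13.8%). Among the 27, the window shared by HOXC4 and HOXC5 was counted for each gene, whereas the set of all windows held no duplicates. Several of these windows overlap or belong to the same gene, and a match is a description of letters, not a site.

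Summed gene counts were between 5613144 and 8056550 per library, and 3 counts, the floor used for detection, equalled 0.372 to 0.534 counts per 1000000 (CPM). Of 14 sympathetic neuroblast markers, 13 had at least 3 counts in all 4 libraries, and TH, the first enzyme of catecholamine synthesis, was at 0 in all 4. Of the markers of other cells, blood genes had 0 of 4 and keratinocyte or epithelial genes 1 of 5 at that level, while 8 of 11 mesenchymal genes reached it. Summed TPM (transcript counts per length, scaled to 1000000) of the neuroblast markers were 5495 and 5775 in control and 4614 and 5112 in SNP. Those of the mesenchymal markers were 428 and 478 in control and 500 and 498 in SNP. Neither sum overlapped between the groups. Single neuroblast markers went both ways, DBH from 1054 and 1240 TPM in control to 398 and 564 TPM in SNP and HAND2 from 687 and 695 TPM to 947 and 1049 TPM, and TWIST1 alone gave 314 to 380 TPM of the mesenchymal sum. The sums thus describe a few abundant genes, and the part of these shifts in the HOX results was not tested. In RNA from whole cultures, fewer cells of a type and less RNA per cell cannot be told apart.

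In control cells 9 of the 39 HOX genes reached 3 counts in both libraries, and all 9 lay in HOXC and HOXD. They were HOXC4, HOXC5, HOXC6 and HOXC9, and HOXD3, HOXD4, HOXD8, HOXD9 and HOXD10. A further 23 genes were at 0 in all 4 libraries, 10 of 11 in HOXA, 9 of 10 in HOXB, 3 of 9 in HOXC and 1 of 9 in HOXD. The other 7 had between 1 and 6 reads over the 4 libraries.

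HOXA, on chromosome 7 (27092993 to 27200106), gave 1 read in all, from HOXA3 in SNP a. HOXB, on chromosome 17 (48528526 to 48729178), gave 3 reads, from HOXB13, with 1 in control a and 2 in SNP b. With 0 counts, a gene may still be present at up to the floor of each library. The annotated genes between the HOX genes gave the same picture: 21 of 23 in the HOXA span and 17 of 17 in the HOXB span were at 0 everywhere. Some of the listed genes outside the silent clusters were counted and others were not. EVX1, a homeobox gene beside HOXA, and SKAP1, an adaptor protein gene beside HOXB, were at 0 in all 4 libraries, and TTLL6, also beside HOXB, had 1 read. HIBADH, an enzyme of valine breakdown beside HOXA, had 114 to 162 counts, TAX1BP1, a selective autophagy receptor, had 710 to 1571, and NFE2L1, a transcription factor gene beside HOXB, had 975 to 2040.

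**Figure D1:**
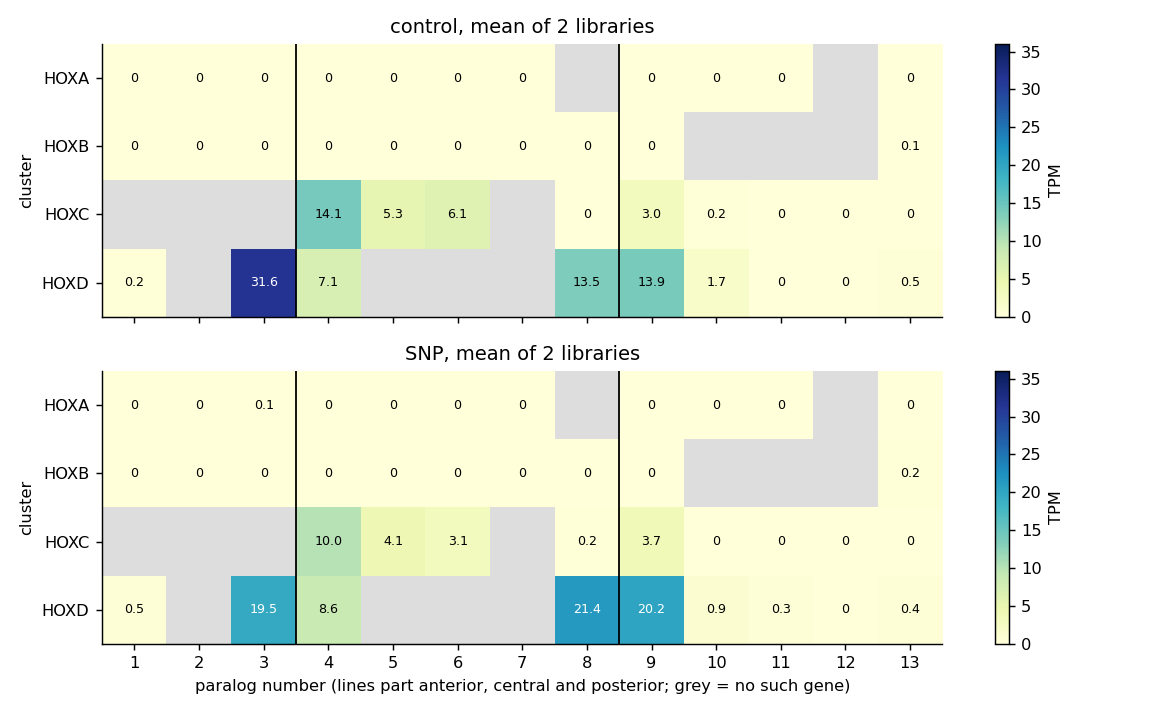
Mean TPM of each HOX gene by cluster (rows) and paralog number (columns), in control (top) and SNP (bottom), n = 2 libraries each. The counted genes lie in the HOXC and HOXD rows, where HOXD3 has the highest control mean, 31.6 TPM.

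The order of levels per length was led by HOXD3, at 31.6 ± 3.72 TPM (mean ± SD, n = 2) in control, which placed it at the 54.0 and 58.0 percentiles of the protein-coding genes with a count in control a and b. HOXC4, HOXD9 and HOXD8 followed at 14.1 ± 2.40, 13.9 ± 3.12 and 13.5 ± 0.978 TPM, with overlapping values. HOXD4 (7.14 ± 0.319), HOXC6 (6.05 ± 1.49) and HOXC5 (5.32 ± 0.919) came next, and each overlapped its neighbour in this order. HOXC9 (3.04 ± 0.670) and HOXD10 (1.74 ± 0.196) were the lowest, and did not overlap each other. The detected genes thus stood between the 14.8 and 58.0 percentiles of counted coding genes. A level per length divides reads that overlapping genes share, so the places of HOXD3, HOXD4, HOXC4, HOXC5 and HOXC6 depend on the authors' assignment of such reads.

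Levels broke off inside each cluster and did not run smoothly along it. In HOXD (chromosome 2, 176092891 to 176190907), HOXD1, at the 3' end, had 1, 0, 0 and 3 counts in control a, control b, SNP a and SNP b. At the other end, HOXD11 had 0, 0, 0 and 2, HOXD12 had 0 in every library, and HOXD13 had 1, 2, 1 and 2. The counted stretch therefore ran from HOXD3 to HOXD10, and HOXD10, at 6, 6, 7 and 1 counts, was its weakest member. In HOXC (chromosome 12, 53938765 to 54056030), HOXC4, HOXC5, HOXC6 and HOXC9 were counted. HOXC8, which lies between HOXC6 and HOXC9 by number, had 1 read in SNP a, and HOXC10 had 1 in control b. HOXC11, HOXC12 and HOXC13 were at 0 in all 4 libraries.

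**Figure D2:**
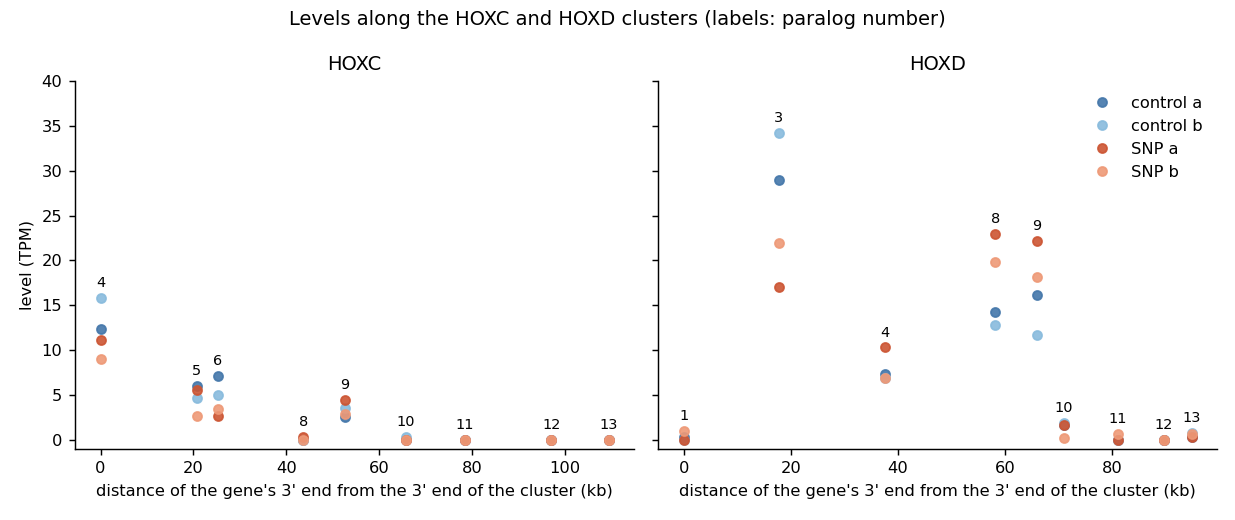
TPM of each HOXC (left) and HOXD (right) gene in each of the 4 libraries against the distance in kb of the gene's 3' end from the 3' end of its cluster, with paralog numbers as labels. In HOXD the levels rise and fall between HOXD1 and HOXD10, from near 0 at HOXD1 to 34.2 TPM at HOXD3 in control b.

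The summed level of all HOX genes was 97.2 and 97.7 TPM in control and 98.7 and 87.7 TPM in SNP, so the groups overlapped. Shares of the summed RPKM (reads per kilobase and depth) were also compared. HOXD made up 70.9 and 70.0% in control and 75.4 and 79.2% in SNP, with no overlap. Among genes that share under 10% of their exon bases, the HOXD shares were 91.7 and 86.7% in control and 90.4 and 92.3% in SNP, which overlapped. This limit drops HOXC4, HOXC5 and HOXC6, and central HOXC genes made up 26.2 and 26.1% of the whole sum in control. The higher HOXD shares under it thus go with the loss of most of HOXC. Anterior genes, almost wholly HOXD3, made up 30.2 and 35.0% in control and 17.4 and 26.2% in SNP. Posterior genes, mostly HOXD9, made up 21.4 and 18.7% in control and 28.99 and 26.1% in SNP, and central genes 48.4 and 46.3% against 53.6 and 47.7%. The anterior share was lower and the posterior share higher in both SNP libraries than in either control library, while the central shares overlapped. Keeping only genes that share under 10% of their exon bases leaves out HOXD3, HOXD4, HOXD10, HOXC4, HOXC5 and HOXC6. The central share then rests on HOXD8, apart from 1 HOXC8 read in SNP a, and the posterior share mostly on HOXD9 and HOXC9. Posterior genes then made up 57.5 and 56.0% in control and 53.7 and 52.5% in SNP, and central genes 42.5 and 44.0% against 46.3 and 47.5%. The posterior share was thus lower in SNP and the central share higher, without overlap. This sets HOXD8 against HOXD9 and HOXC9 and does not describe whole axial groups. The ratio of HOXD8 to HOXD9 counts, given below, overlapped. With 2 libraries a group an exact two-sided permutation test cannot go below p = 0.33, so no test is given for these shares.

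Which HOX genes differed between SNP and control was asked in a fit over all genes. Of the 39 genes, 7 passed the filter on low counts and 1 of these, HOXD3, was called at an adjusted p under 0.05 by edgeR's quasi-likelihood test, as lower in SNP. Of all 14759 genes tested, 26.2% were called, 13.6% as higher and 12.6% as lower, so 1 of 7 is no more than the background. In 5 of the 7 HOX genes the groups did not overlap in CPM (2 higher, 3 lower), against 64% of all genes tested. The median log2 fold change of the 7 was -0.48, beside -0.0042 for all genes. The tested members of HOXC all had values below 0, and those of HOXD lay on both sides.

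HOXD3, an anterior HOXD gene, was at 22.1 and 25.6 CPM in control and 12.1 and 14.9 CPM in SNP. Both SNP libraries were below both control libraries. HOXD3 fell by 0.82 on the log2 scale (SE 0.192). Its p by the quasi-likelihood test of edgeR was 0.00326 after Benjamini-Hochberg adjustment over the 14759 genes tested. The call was lost under offsets that remove the relation of reads to guanine-over-cytosine content, where the log2 fold change was -0.44 (adjusted p = 0.0791 in edgeR). Summing its reads with those of HOXD4 and AC009336.2, described below, also ended the call.

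HOXD3 spans 176136612 to 176173102 on chromosome 2 and holds HOXD4 (176151222 to 176153226) inside it. Of its 3548 exon bases, 74.1% also belong to another gene. The main partner is AC009336.2, a gene annotated as protein coding on the same strand, which shares 2206 of the HOXD3 bases and 1178 of the 1464 exon bases of HOXD4. Of the exon bases of AC009336.2, 96.1% lie in HOXD3 or HOXD4. The RefSeq start of HOXD3 shown above is 20695 bases inside the HOXD3 gene model of GENCODE, and so within the span of AC009336.2.

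AC009336.2 was at 5.71 and 3.91 CPM in control and 8.06 and 12.8 CPM in SNP. It rose where HOXD3 fell, with a log2 fold change of 1.10 (SE 0.305, adjusted p = 0.0104 by edgeR's quasi-likelihood test). The call for AC009336.2 was lost with DESeq2 (adjusted p = 0.0550), without control b (adjusted p = 0.0683) and without SNP b (0.74 on the log2 scale, adjusted p = 0.158), all chosen after the data were seen. HOXD4, a central gene, lies within the spans of both HOXD3 and AC009336.2. HOXD4 was at 2.31 and 2.13 CPM in control and 3.02 and 1.94 CPM in SNP, and the groups overlapped (log2 fold change 0.16, 95% interval -0.82 to 1.14).

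The share of the locus's reads that was assigned to AC009336.2 was 19.0 and 12.4% in control and 34.8 and 43.2% in SNP, the locus being HOXD3, HOXD4 and AC009336.2 together. Summed over the 3 genes, the locus gave 195 and 178 reads for control, and 184 and 229 for SNP, which were 30.1 and 31.6 CPM against 23.2 and 29.7 CPM. All SNP values were below all control values, by less than HOXD3 alone. The log2 fold change of the sum was -0.22 (95% interval -0.56 to 0.12, adjusted p = 0.346 in edgeR), and with this sum in place of the 3 genes no HOX gene was called. The sum was chosen after the data were seen. How far the values of HOXD3 and AC009336.2 reflect the transcripts of each or the assignment of shared reads was not tested.

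**Figure D3:**
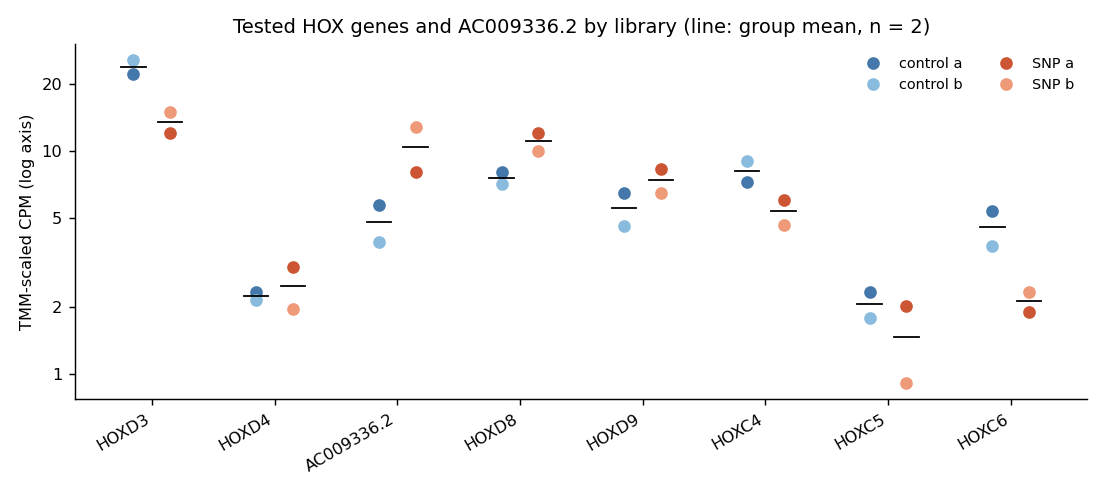
CPM after TMM scaling, on a log axis, of the 7 tested HOX genes and AC009336.2, each point 1 library and each line a group mean (n = 2). HOXD3 is lower in both SNP libraries and AC009336.2 higher, and the HOXD4 points overlap.

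HOXD8 and HOXD9 share 0 exon bases with any other gene, so their reads are not divided. HOXD8, a central gene, was at 8.02 and 7.10 CPM in control and 12.1 and 9.98 CPM in SNP. Both SNP values were above both control values, and the log2 fold change was 0.54 (SE 0.250, 95% interval 0.022 to 1.06, adjusted p = 0.117 by edgeR's quasi-likelihood test), which did not pass the threshold. HOXD9, a posterior gene, was at 6.48 and 4.62 CPM in control and 8.31 and 6.48 CPM in SNP, where the lowest SNP value and the highest control value were equal to 3 digits. Its log2 fold change was 0.41 (95% interval -0.22 to 1.04, adjusted p = 0.351 in edgeR). The HOXD9 value was 0.67 without control a, 0.19 without control b and 0.22 without SNP a.

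Within HOXD the ratio of HOXD8 to HOXD3 counts was 0.364 and 0.278 in control and 1.00 and 0.670 in SNP. The ratio of HOXD8 to HOXD9, which share no reads with other genes, was 1.24 and 1.54 in control and 1.45 and 1.54 in SNP, and overlapped. The antisense gene HAGLR, which overlaps HOXD3 in 134 bases, was at 17.9 and 14.4 CPM in control and 11.6 and 11.5 CPM in SNP (log2 fold change -0.48, adjusted p = 0.0947 in edgeR). HOXD-AS2, which overlaps HOXD3 in 379 bases, had counts of 12 and 9 in control libraries and of 17 and 11 in SNP libraries, which overlapped. Whether the authors counted by strand is not stated, so reads of HOXD3 and its antisense neighbours may be mixed.

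The 3 tested HOXC genes, all central, had lower values in SNP and none passed the threshold. HOXC4 was at 7.25 and 9.05 CPM in control and 6.04 and 4.67 CPM in SNP (log2 fold change -0.60, 95% interval -1.21 to 0.016, adjusted p = 0.144 in edgeR). HOXC6 was at 5.40 and 3.73 CPM in control and 1.89 and 2.33 CPM in SNP, the widest difference of the 7 (log2 fold change -1.12, SE 0.415, adjusted p = 0.0517 in edgeR). HOXC5 was at 2.31 and 1.78 CPM in control and 2.01 and 0.908 CPM in SNP, and its groups overlapped (log2 fold change -0.48, 95% interval -1.62 to 0.66). The HOXC5 value was -1.16 without SNP a and -0.025 without SNP b, and 0.12 under the guanine-over-cytosine offsets, where HOXC4 was at -0.13. For HOXC4 and HOXC6 both SNP values were below both control values. HOXC4 and HOXC6 share 484 exon bases, and 59.9% of the exon bases of HOXC5 belong also to other annotated genes. The counts of these 3 genes, HOXC9 and 2 overlapping genes without a HOX name were 107 and 89 in control and 91 and 72 in SNP when summed, or 16.5 and 15.8 CPM against 11.5 and 9.33 CPM. This sum, chosen after the data were seen, had a log2 fold change of -0.63 (95% interval -1.08 to -0.19, adjusted p = 0.0324 in edgeR), which passed the threshold. The call of the sum was lost in 5 of 10 alternatives, among them without control a (adjusted p = 0.139), control b (adjusted p = 0.0887) or SNP b (adjusted p = 0.119) in edgeR.

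The other counted members were too low for the test. HOXC9, a posterior gene, gave 6 and 7 reads for control, and 12 and 7 for SNP. HOXD10, also posterior, had 6 and 6 in control and 7 and 1 in SNP, so it reached 3 counts in both control libraries but in only 1 SNP library. The counts of both genes overlapped between the groups. Among the 25 listed noncoding genes of the clusters, 24 were in the tables and 2, HAGLR and HOXD-AS2, were tested, neither of which was called. HOTAIR, transcribed from HOXC, had 1 read, and HOTTIP, beside HOXA13, had 3, all in SNP b.

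**Figure D4:**
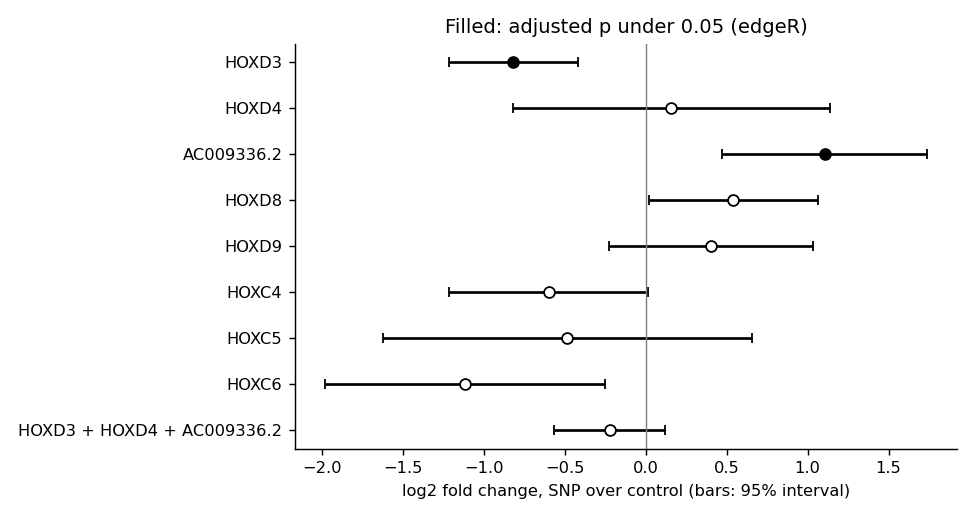
Log2 fold change, SNP over control, with 95% intervals (bars) for the 7 tested HOX genes, AC009336.2 and the sum of HOXD3, HOXD4 and AC009336.2, with filled points where the adjusted p was under 0.05. HOXD3 (-0.82) and AC009336.2 (1.10) are filled and the sum (-0.22) is open.

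Across all genes the fold change moved with base composition, and the HOX genes differ in it. The Spearman correlation of the log2 fold change with guanine minus cytosine content was 0.480 over 14724 genes, given as a description since genes share libraries. HOXC5 (-6.59 percentage points), HOXC4 (-5.42), HOXD3 (-3.05) and HOXC6 (-2.39) hold more cytosine than guanine, while HOXD9 (0), HOXD8 (0.75) and HOXD4 (1.30) do not. Genes within 0.5 percentage points of HOXC4 had a median log2 fold change of -0.46 (201 genes), those of HOXC5 -0.49 (100 genes), those of HOXD3 -0.37 (637 genes) and those of HOXC6 -0.29 (917 genes). For HOXD8 and HOXD9 these medians were -0.040 and -0.082. HOXC4 and HOXC5 lay within 1 SE of the median of genes like them in composition, while HOXD3 and HOXC6 lay below theirs and HOXD8 and HOXD9 above theirs by more than 1 SE. The part of base composition in the HOX values was not tested beyond the offsets given above.

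**Figure D5:**
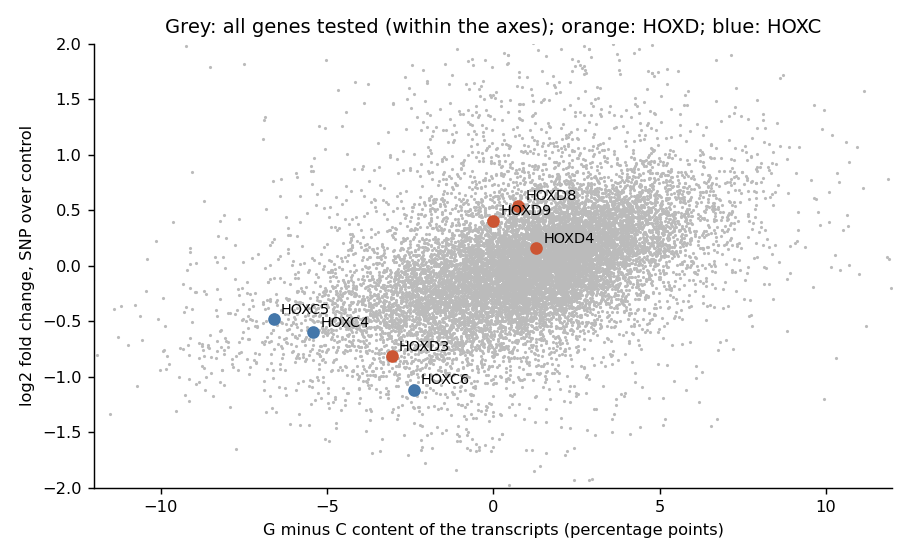
Log2 fold change, SNP over control, against guanine minus cytosine content of the transcripts in percentage points, for all genes tested (grey) and the HOXC (blue) and HOXD (orange) genes. Over all genes the log2 fold change rises with this content. The tested HOX genes with the lowest content, HOXC5 (-6.59) and HOXC4 (-5.42), have log2 fold changes below 0, and HOXD8 and HOXD9 have log2 fold changes above 0.

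Genes that work with HOX proteins, or act on the clusters, were read from the same fit. Their counts stand beside 13.6% called higher and 12.6% called lower over all genes tested, and nothing is called particular to a list. Of 9 partners of the TALE class, 8 were tested, 5 fell and 0 rose, with a median log2 fold change of -0.43. PBX3, a partner that helps HOX proteins choose their sites, was at 80.0 and 77.1 CPM in control and 45.7 and 50.2 CPM in SNP (log2 fold change -0.71, adjusted p = 1.9e-04 in edgeR). MEIS1 (-0.46), MEIS2 (-0.42) and MEIS3 (-0.41) also fell, MEIS3 being named after its values were seen. PBX3 kept its call in every alternative run. MEIS1, MEIS2 and MEIS3 lost theirs with the read totals implied by RPKM. MEIS3 lost its call in 7 of 17 alternatives, among them DESeq2, the length and GC offsets and the guanine-over-cytosine offsets. The call was lost for MEIS1 without control b (adjusted p = 0.121), and for MEIS3 without control a (-0.28, adjusted p = 0.371) or SNP a (-0.34, adjusted p = 0.0962), all in edgeR.

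Of 27 Polycomb subunits, all tested, 3 rose and 3 fell, with a median of 0.0059. AEBP2 (0.60) and SUZ12 (0.33), both parts of the complex that writes the Polycomb histone mark, rose, and PCGF2 (-0.77), PHF19 (-0.69) and PHC2 (-0.58) fell. Under the guanine-over-cytosine offsets the calls of AEBP2 (0.24), SUZ12 (0.046), PCGF2 (-0.18) and PHC2 (-0.18) were lost, and that of PHF19 was kept. Of 13 MLL and trithorax genes, 4 were called, near the 26.2% over all genes. PSIP1 rose (0.33) and KDM6B (-0.57), which removes the Polycomb mark, KMT2D (-0.33) and KMT2A (-0.25), both histone methyltransferases, fell. Under the guanine-over-cytosine offsets 0 of the 13 were called. Leaving out 1 library ended the calls of SUZ12 (control a or b, or SNP a), PSIP1 (control a or b, or SNP a), KMT2A (control a, or SNP a or b) and KMT2D (control a or SNP a). The log2 fold changes were then 0.29 to 0.34 for SUZ12, 0.20 to 0.36 for PSIP1, -0.25 to -0.18 for KMT2A and -0.31 and -0.14 for KMT2D.

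Of 17 retinoic acid pathway genes, 11 were tested, and the receptors RARA (-0.63) and RARG (-0.64) fell. Both receptors lost the call under the guanine-over-cytosine offsets, and RARG also without control a (-0.47) or SNP a (-0.48). CYP26A1, the enzyme that degrades retinoic acid and is known to be induced by it, was at 0 in all 4 libraries. RARB, a receptor gene also known to be induced, gave 21 and 17 reads for control, and 28 and 19 for SNP. Other genes of the list differed widely. STRA6 gave 1500 and 1271 reads for control and 1680 and 1947 for SNP, and CRABP2 gave 129 and 99 against 124 and 137. DHRS3 gave 18 and 13 against 25 and 19, and RXRG and ALDH1A1 were at 0 in all 4 libraries. Whether the cells had responded to retinoic acid was not tested. Of 5 tested ParaHox and other regulator genes 0 were called. Of 17 tested genes that flank the clusters, 5 rose and 2 fell, against 13.6 and 12.6% of all genes. Beside HOXD, LNPK, a protein that shapes the endoplasmic reticulum, fell (-0.55). Beside HOXC, CALCOCO1 (0.76) and HNRNPA1 (1.12) rose and ATP5G2 (-0.40) fell, the latter call being lost without control a (-0.49), control b (-0.31) or SNP a (-0.30). HNRNPA1 has processed pseudogenes, and how reads were divided among them was not tested; its value was 0.40 under the guanine-over-cytosine offsets. Beside the silent clusters, TAX1BP1 (0.54, by HOXA) and NFE2L1 (0.54, by HOXB) rose, and TAX1BP1 lost the call under the guanine-over-cytosine offsets (0.25, adjusted p = 0.0540 in edgeR).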

How the data were processed

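Tables of 4 SH-SY5Y libraries, 2 control and 2 SNP, were used, grouped by the sample titles and descriptions. Each deposited table gives per gene a read count, which the authors left without normalization, a TPM value and an RPKM value, per the file headers. The TPM values deposited by the authors sum to 1000000 per library. The RPKM values deposited by the authors are divided by a read total larger than the summed counts. The summed counts were 11.5 to 13.3% of that total, as implied by the counts, RPKM values and gene lengths. The build was GRCh38, per the submitters' processing notes; the aligner, counter, annotation and use of strand are not given in the sources used here. Gene models came from GENCODE 29 and start windows from RefSeq (GRCh38.p14).

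Counts were filtered with filterByExpr (minimum count 10, minimum total 15), scaled by TMM and compared with edgeR 4.0.16 in R 4.3.3 by the quasi-likelihood test on all 4 libraries without covariates, with Benjamini-Hochberg adjustment and a threshold of 0.05. Summed counts of 5613144 to 8056550 set the precision. DESeq2 1.42.0, limma-voom (limma 3.58.1), other filters and scalings, offsets on gene length with GC, and on guanine over cytosine as well, the replicate letter as a block and leaving out each library were alternatives. The fitting was tested on simulated data. Every HOX gene was reported; of each other list, called genes were named up to 4 each way by size of change, except that some are not reported here. Genes of the list of cluster flanks that stand under 2 symbols were matched by the symbol in the tables. The members and lists were chosen with earlier results of these data known.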

Additional observations from a re-analysis of the deposited data

How the results depend on the processing

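The count of HOX genes called was 1 in 15 of 18 alternatives, and 0 under the guanine-over-cytosine offsets, under these offsets with the replicate block, and with HOXD3, HOXD4 and AC009336.2 summed. The alternatives for the lists, the summed loci and the genes outside HOX were chosen after seeing the data. With the letters a and b as a replicate block, 1 HOX gene was called. The differences between letters correlated at 0.050 between the groups. This cannot settle whether the letters pair the libraries, since the noise of single libraries enters these differences. Over the 7 tested HOX genes, 101 of 106 alternatives kept direction and side of the threshold, 2 lost the HOXD3 call, and 3 reversed: HOXC5 to 0.12 and 0.11 under the guanine-over-cytosine offsets without and with the block, and HOXD4 to -0.19 without SNP a (-0.19 to 0.44 without 1 library). HOXD3 lay between -0.97 and -0.67 (adjusted p 0.00103 to 0.0401 in edgeR) when 1 library was left out, the lone library of a group then being assumed to vary like the others. Under the same offsets KMT2D reversed to 0.024, and to 0.020 with the block, where MEIS3 reversed to 0.0053. HOXD-AS2 reversed to -0.051 without control b and -0.27 without SNP a (up to 0.31 without SNP b).

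Of 23 called list genes followed, 6 kept the call in every alternative, 13 lost it under the guanine-over-cytosine offsets and 10 on leaving out a library. MLL and trithorax calls, 4, became 1 at an adjusted p under 0.01, 2 with RPKM read totals, 0 with the guanine-over-cytosine offsets and 1 with these and the block, and 1 to 4 without 1 library. Retinoic acid calls, 2, became 1 at 0.01, without the filter, with total counts, with RPKM read totals, with DESeq2, with the length and GC offsets, and with the guanine-over-cytosine offsets without or with the block (there a gene called higher, with neither receptor kept), and 1 to 2 without 1 library. TALE calls, 5, became 2 with RPKM read totals and 3 to 5 without 1 library. Shares of the summed level moved when counts replaced RPKM (control: HOXD 71.7, anterior 42.3, central 43.5, posterior 14.3%; SNP: anterior 30.3, posterior 20.8%). They also moved with only genes sharing under 10% of exon bases (control: HOXD 89.2, anterior 0, central 43.2, posterior 56.8%; SNP: HOXD 91.3, anterior 0, central 46.9, posterior 53.1%). There the posterior share turned from higher to lower in SNP, but of the detected genes only HOXD8, HOXD9 and HOXC9 remain. Counts of 1 to 24 limit HOXC5, HOXC9, HOXD4 and HOXD10 most.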
